A study of Homo sapiens with 6 samples.

Results

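WNT ligands, their receptors, the secreted antagonists and the factors that carry or dampen the signal were measured in H69M and H69, which are human small cell lung cancer lines, on Affymetrix whole-transcript arrays of total RNA, with 3 arrays of each line. The genes were taken by symbol: every gene named WNT or FZD plus a number, and a fixed set of co-receptors, DKK and SFRP antagonists, AXIN and TCF genes and other regulators. Of 56 symbols asked for, 54 were measured among the 18404 genes of the table. TCF7 is not analysed here, and SFRP3 is listed on the platform under its current symbol FRZB and is given with the other extracellular modulators. H69 is an established line with neuroendocrine features that is cultured in suspension. The labels give neither the origin of H69M nor a treatment, and nothing in them tells whether replicates came from separate cultures. The p-values therefore reflect only how far these arrays differ, which may be technical. Over 12 measured neuroendocrine markers the mean log2 value of an array was 9.19 to 9.47 in H69M and 9.84 to 9.90 in H69. Of the 12, 8 were lower in H69M (66.7%, against 23.2% of all genes) and 0 higher (against 21%).

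WNT proteins are secreted, lipid-modified ligands. They bind Frizzled receptors together with the co-receptors LRP5 or LRP6. In the beta-catenin branch this stops the destruction complex, built on AXIN and APC, from marking beta-catenin for degradation, and beta-catenin then joins TCF and LEF factors on DNA. Other branches run through Frizzled, ROR and RYK receptors to cell polarity and calcium signals without beta-catenin. Secreted antagonists act outside the cell: DKK proteins on the co-receptors, SFRP proteins and WIF1 on the ligands, and NOTUM by removing the lipid.

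Values are log2 values per probe set as deposited, and differences are log2 fold changes of H69M minus H69 with their standard errors from limma. A gene passed when its limma Benjamini-Hochberg adjusted p, over all 18404 genes, was under 0.05. Medians over all probe sets were 6.43 to 6.48 in the arrays. H69M replicate 1 was the H69M array nearest to the H69 mean for 20 of the 33 members that passed (60.6%), and for 55% of all genes that passed.

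Of the 54 members, 18 were higher and 15 lower in H69M and 21 did not pass, so that 61.1% passed, where 44.2% of all genes did. Rises passed in 33.3% of members (21% of all genes) and falls in 27.8% (23.2% of all genes), so that the share of falls was near that of all genes. At least 2-fold rises were seen in 10 members (18.5%, against 5.56% of all genes), and at least 2-fold falls in 5 (9.26%, against 2.72%). No overlap between the arrays of H69M and H69 was seen for 37 members (68.5%), where this held for 55.8% of all genes. The median log2 fold change was 0.034 over the members and -0.041 over all genes. The members were not a random draw, and these shares carry no test. Of the 54 members, 31 had a mean over the 6 arrays below the median of all genes (7.16) and 9 below the 25th percentile (5.58). The arrays give no detection call, so a dim value cannot be told apart from background. Testing only genes with a 6-array mean at or above the median kept 23 members, of which 8 were higher and 11 lower. Since that mean pools both lines, this filter drops genes that are low in 1 line, among them DKK1, TCF7L1, TCF7L2, WNT2B and FZD7, whose H69M means lie above the median. In bulk RNA, fewer cells of a type and less RNA per cell cannot be told apart.

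**Figure D1:**
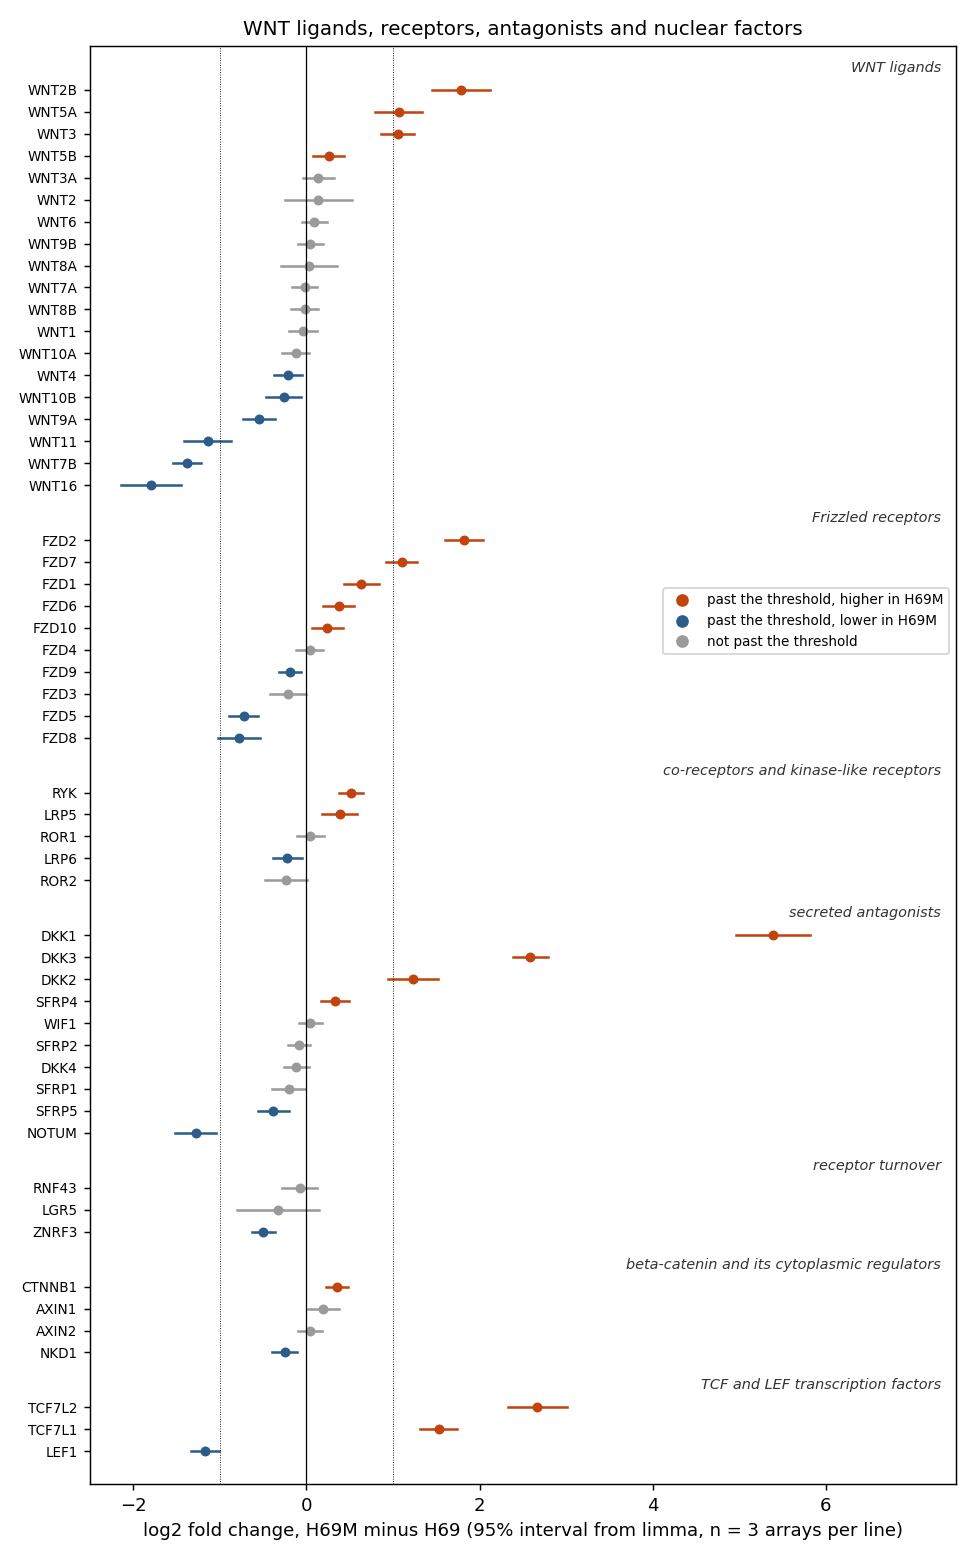
Log2 fold change (H69M minus H69, x axis) of each of the 54 measured members, grouped by role, with the 95% interval from limma (n = 3 arrays per line); dotted lines mark a 2-fold difference. DKK1 stands furthest to the right at 5.39 and WNT16 furthest to the left at -1.80, and every role except receptor turnover holds both rises and falls.

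Markers of other cell types were read in the same lines, between which 21% of all genes rose and 23.2% fell. Fibroblast markers rose in 10 of 14 (71.4%) and fell in 0, and their mean log2 value was 8.23 to 8.56 in H69M and 5.84 to 5.85 in H69. Endothelial markers rose in 5 of 12 (41.7%) and fell in 1 (8.33%), with a mean of 5.37 to 5.79 in H69M and 5.002 to 5.063 in H69. TEK (3.28) and FLT1 (2.96) rose most, and PECAM1, CDH5 and VWF did not pass. In H69M, TEK stood at 8.44, 8.58 and 6.64 and FLT1 at 7.77, 8.19 and 5.82, so that replicate 3 was far the lowest for both. The H69 means of TEK (4.61) and FLT1 (4.30) lay below the 25th percentile of all gene means (5.58). Leukocyte markers rose in 1 of 12 (8.33%) and fell in 3 (25%, near the share of all genes). Their mean was 5.07 to 5.11 in H69M and 5.14 to 5.22 in H69. Of the 12 endothelial markers 8, and of the 12 leukocyte markers 7, had a 6-array mean below the 25th percentile of all genes. Epithelial markers rose in 2 of 11 (18.2%) and fell in 6 (54.5%), at 7.88 to 8.15 in H69M and 8.30 to 8.44 in H69. The part of these cell type differences in the WNT results was not tested.

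DKK1 and the TCF and LEF factors are shown by sequence because DKK1 changed most and these factors changed in opposite directions. The DNA core that TCF and LEF proteins bind reads CTTTGA, and it was searched on both strands in the 250 bases before each tabulated gene start (RefSeq, GRCh38.p14). Each sequence runs 5′ to 3′ on the gene's own strand and ends just before the start, with matches to the core in capitals. The DKK1 window lies at chr10:52314031-52314280 on the plus strand, that of TCF7L2 at chr10:112949997-112950246 on the plus strand, the first of the 3 starts tabulated for this gene, and that of LEF1 at chr4:108166302-108166551 on the minus strand.
DKK1: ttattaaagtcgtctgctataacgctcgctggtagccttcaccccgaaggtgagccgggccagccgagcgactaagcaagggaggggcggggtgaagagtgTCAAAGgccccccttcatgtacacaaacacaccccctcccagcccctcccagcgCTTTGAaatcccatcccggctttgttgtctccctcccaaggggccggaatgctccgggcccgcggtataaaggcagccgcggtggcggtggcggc
TCF7L2: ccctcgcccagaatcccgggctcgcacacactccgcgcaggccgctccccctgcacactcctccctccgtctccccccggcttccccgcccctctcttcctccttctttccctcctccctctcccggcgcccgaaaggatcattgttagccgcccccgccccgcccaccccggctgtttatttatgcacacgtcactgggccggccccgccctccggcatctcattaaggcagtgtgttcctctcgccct
LEF1: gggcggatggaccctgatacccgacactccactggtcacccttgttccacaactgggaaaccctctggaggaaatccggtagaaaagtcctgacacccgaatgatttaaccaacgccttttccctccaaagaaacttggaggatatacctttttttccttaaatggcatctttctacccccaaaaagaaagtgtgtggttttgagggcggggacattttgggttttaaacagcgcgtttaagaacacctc

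The DKK1 window held the core at 2 places, starting 149 and 95 bases before the gene start, the first of them on the opposite strand. The printed windows of TCF7L2 and LEF1 held none. Of the 54 members, 36 had a tabulated promoter, 42 windows in all, and DKK1's was the only window with the core (2.38%). Among the windows of all genes tested, 9.69% held it. The longer forms CTTTGAT and CTTTGAA, of which each match is also a match to the core, were found in 2.38% of member windows and 4.95% of the windows of all genes tested. A match is a run of letters, and whether any factor bound there was not measured.

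Of 19 ligand genes, 4 rose (21.1%, against 21% of all genes) and 6 fell (31.6%, against 23.2%). The other 9 did not pass, and the median log2 fold change over the 19 was -0.018. The 3 ligand genes with at least 2-fold rises were WNT2B, WNT5A and WNT3. WNT2B, a ligand known from embryonic eye and limb development, stood at 7.47, 7.52 and 7.08 in H69M, against 5.51, 5.82 and 5.39 in H69. It rose by 1.78 ± 0.14 (log2, SE), a 3.44-fold difference (limma, adjusted p = 3.36e-05), and no H69M array came near the H69 arrays. WNT5A, the best known ligand of the branches without beta-catenin, had values of 6.17, 6.10 and 5.77 in H69M, against 5.05, 4.79 and 5.005 in H69. Its rise of 1.06 ± 0.12 (limma, adjusted p = 0.000188) left a clear gap between the lines. H69M replicate 3 was the lowest H69M array for both genes. The H69 means of WNT2B (5.57) and WNT5A (4.95) lay below the 25th percentile of all gene means (5.58). Neither rise is therefore an exact ratio of RNA levels. WNT3, a ligand that acts through beta-catenin in intestinal crypts, was measured at 7.02, 7.20 and 7.14 in H69M, against 6.18, 5.94 and 6.07 in H69, and rose by 1.06 ± 0.082 (limma, adjusted p = 2.75e-05). WNT5B, the close relative of WNT5A, rose by only 0.26 ± 0.077 (limma, adjusted p = 0.0286). That call was lost when any 1 of H69M replicate 1, H69M replicate 2, H69 replicate 1 or H69 replicate 3 was left out, with a limma adjusted p of up to 0.0854.

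The ligand genes that fell were led by WNT16, WNT7B and WNT11. WNT16, a ligand known for its part in bone, had values of 5.65, 5.90 and 6.22 in H69M, against 7.62, 7.93 and 7.62 in H69. The log2 fold change of -1.80 ± 0.15 made a 3.49-fold lower level in H69M (limma, adjusted p = 3.95e-05), and the H69M arrays were spread wider than the H69 arrays without meeting them. WNT7B, which acts in lung and vascular development, stood at 6.75, 6.82 and 6.68 in H69M, against 8.09, 8.22 and 8.08 in H69. The arrays of each line lay close together, and the log2 fold change was -1.38 ± 0.068 (limma, adjusted p = 2.6e-06). WNT11, another ligand of the branches without beta-catenin, was measured at 6.80, 6.49 and 6.63 in H69M, against 7.90, 7.89 and 7.56 in H69, with a fold change of -1.14 ± 0.12 (limma, adjusted p = 0.000119). WNT5A and WNT11, which are often grouped together by their signalling branch, moved in opposite directions.

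Smaller falls were measured for WNT9A (-0.55 ± 0.079, limma adjusted p = 0.00075), WNT10B (-0.26 ± 0.089, limma adjusted p = 0.0424) and WNT4 (-0.21 ± 0.071, limma adjusted p = 0.0401). The WNT10B and WNT4 calls were not stable. Of the 15 alternatives that tested them, 5 lost the WNT10B call (limma, adjusted p up to 0.121) and 8 the WNT4 call (adjusted p up to 0.118). The 9 ligand genes that did not pass were WNT1, WNT2, WNT3A, WNT6, WNT7A, WNT8A, WNT8B, WNT9B and WNT10A, with fold changes between -0.13 and 0.14. WNT1, the founding member of the family, stood at -0.040 with a 95% interval of -0.20 to 0.12. The interval was widest for WNT2, at -0.25 to 0.53.

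**Figure D2:**
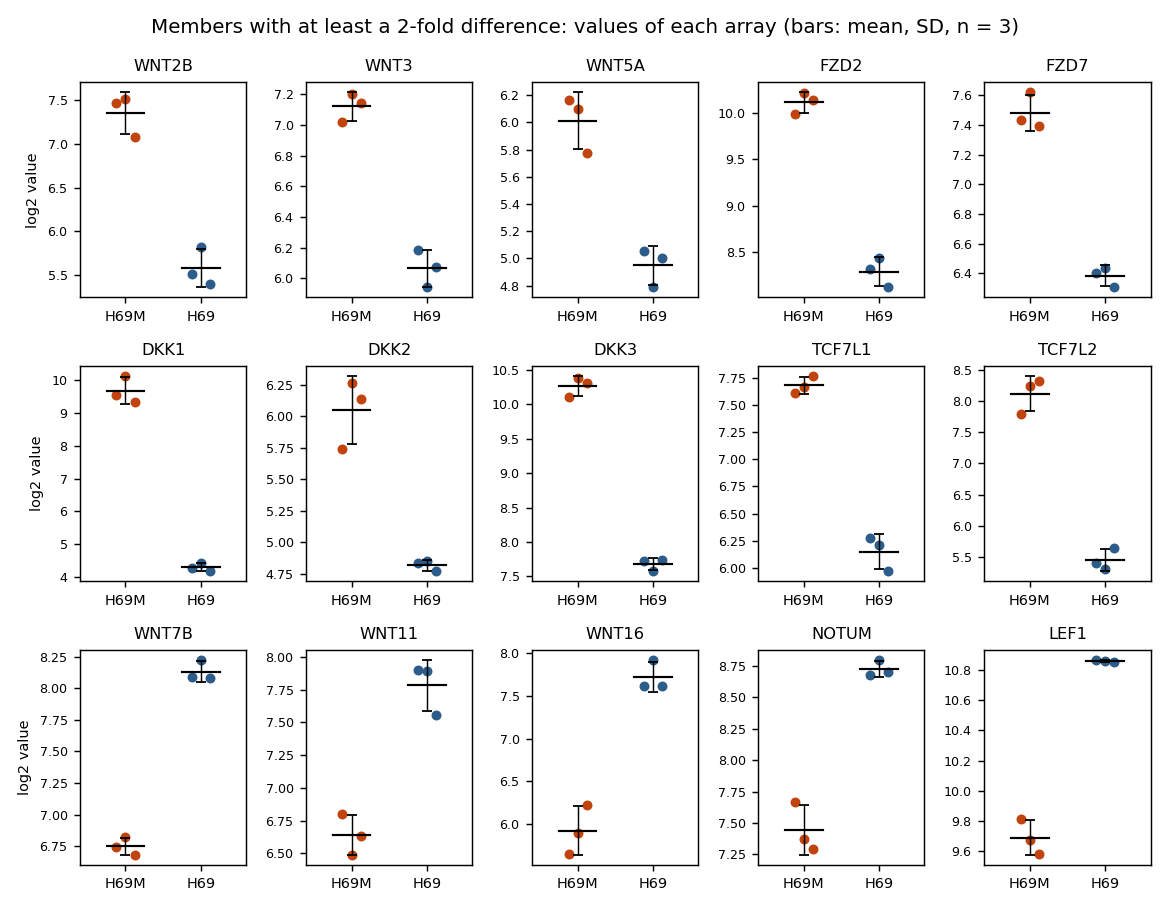
Log2 value of each array (points) with the mean and SD of each line (n = 3) for the 15 members with at least a 2-fold difference, each panel with its own y axis. The first 10 panels show rises and the last 5 falls. In all 15 the H69M arrays (left) and the H69 arrays (right) do not overlap, which held for 55.8% of all genes. The 15 were chosen for their large difference, so the lack of overlap follows largely from that choice.

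Of 10 Frizzled receptor genes, 5 rose (50%, against 21% of all genes), 3 fell (30%, against 23.2%) and 2 did not pass. FZD1, FZD2 and FZD7 form 1 closely related group, and all 3 rose. FZD2 stood at 9.99, 10.21 and 10.13 in H69M, against 8.31, 8.43 and 8.12 in H69, a rise of 1.82 ± 0.096 (limma, adjusted p = 3.61e-06) and a 3.54-fold difference. FZD7 was measured at 7.43, 7.62 and 7.39 in H69M, against 6.40, 6.44 and 6.30 in H69, a rise of 1.10 ± 0.078 (limma, adjusted p = 1.71e-05). In both genes the lowest H69M array lay well above the highest H69 array. FZD1 rose by 0.64 ± 0.086 (limma, adjusted p = 0.000578). FZD5 and FZD8 are another closely related pair, and both fell, by 0.73 ± 0.073 for FZD5 (limma, adjusted p = 0.000113) and by 0.78 ± 0.10 for FZD8 (limma, adjusted p = 0.000495). These groups were put together after the values were seen and carry no test.

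The other Frizzled genes differed by less. FZD6 rose by 0.37 ± 0.077 (limma, adjusted p = 0.00511), while its relative FZD3, at -0.21 (limma, adjusted p = 0.0904), did not pass, although it passed in 3 of 16 alternatives, among them without H69M replicate 1. FZD10 rose by 0.24 ± 0.077 (limma, adjusted p = 0.0341) and FZD9 fell by 0.19 ± 0.054 (limma, adjusted p = 0.0208). The FZD10 call was lost in 5 of 15 alternatives and the FZD9 call in 6 of 16, with limma adjusted p values of up to 0.113 for FZD10 and 0.0643 for FZD9. FZD4, which also serves as the receptor of Norrin in the retina, stood at 0.036 and did not pass (limma, adjusted p = 0.701).

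The co-receptor genes changed little. LRP5 had values of 7.96, 7.87 and 8.10 in H69M, against 7.67, 7.65 and 7.45 in H69, and LRP6 had 8.71, 8.64 and 8.66 in H69M, against 8.94, 8.98 and 8.76 in H69. LRP5 rose by 0.39 ± 0.087 (limma, adjusted p = 0.00776) and LRP6 fell by 0.22 ± 0.072 (limma, adjusted p = 0.0381), without overlap between the lines in either gene. The LRP6 call was lost in 7 of 16 alternatives, among them the arrays centred on their medians and the arrays without H69M replicate 1, with a limma adjusted p of up to 0.126. Of the kinase-like receptors, RYK rose by 0.51 ± 0.059 (limma, adjusted p = 0.000239). ROR1, a receptor of WNT5A, stood at 0.045 (limma, adjusted p = 0.625) with a 95% interval of -0.11 to 0.20. ROR2, the other ROR receptor, had -0.24 (limma, adjusted p = 0.0986) and passed without H69 replicate 3, at -0.35 and an adjusted p of 0.0103.

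The secreted antagonists held the largest rise of the family. Of 10 measured, 4 rose (40%, against 21% of all genes), 2 fell (20%, against 23.2%) and 4 did not pass. DKK1, which binds LRP5 and LRP6 and blocks the beta-catenin branch, stood at 9.56, 10.13 and 9.35 in H69M, against 4.26, 4.42 and 4.18 in H69. It rose by 5.39 ± 0.18 (log2, SE), a 42.0-fold difference (limma, adjusted p = 4.6e-07), with more spread among the H69M arrays than among the H69 arrays. DKK3, a divergent member of the family that is not a typical WNT antagonist, had values of 10.11, 10.39 and 10.31 in H69M, against 7.73, 7.58 and 7.74 in H69. The rise was 2.59 ± 0.088, or 6.01-fold (limma, adjusted p = 4.6e-07), and the arrays of each line lay close together. A second, dimmer probe set of DKK3 differed from this one, at 0.22 ± 0.10, and did not pass (limma, adjusted p = 0.164 over all probe sets). DKK2, which can either block or weakly activate the pathway, was measured at 5.74, 6.26 and 6.13 in H69M, against 4.83, 4.85 and 4.77 in H69, a rise of 1.23 ± 0.13 (limma, adjusted p = 0.000123). H69M replicate 1 was the lowest of the H69M arrays for DKK2 and DKK3, and H69M replicate 3 for DKK1. The H69 values of DKK1 and DKK2 lie below the 25th percentile of all gene means, where no detection call separates them from background, so neither fold is an exact ratio of RNA levels. DKK4 stood at -0.12 and did not pass (limma, adjusted p = 0.177).

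Antagonists that bind ligands changed in both directions. SFRP4 rose by 0.33 ± 0.070 (limma, adjusted p = 0.00523) and SFRP5 fell by 0.38 ± 0.078 (limma, adjusted p = 0.00466). The SFRP4 means, 4.58 in H69M and 4.25 in H69, both lay below the 25th percentile of all gene means (5.58). No detection call separates them from background. SFRP1 (-0.21), SFRP2 (-0.087) and WIF1 (0.045) did not pass. The SFRP1 value passed in 2 of 15 alternatives, without H69M replicate 1 and without H69 replicate 1. NOTUM, the secreted enzyme that strips the lipid from WNT ligands and is itself switched on by beta-catenin in other tissues, had values of 7.67, 7.37 and 7.29 in H69M, against 8.68, 8.80 and 8.70 in H69. It was 2.43-fold lower in H69M, with a log2 fold change of -1.28 ± 0.10 (limma, adjusted p = 3.02e-05), and every H69M array lay about 1 log2 unit or more below every H69 array.

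Beta-catenin RNA was slightly higher in H69M, while of the feedback regulators AXIN2 did not pass and NKD1 was lower. The arrays do not measure the beta-catenin protein. CTNNB1, the beta-catenin gene, stood at 11.73, 11.77 and 11.69 in H69M, against 11.37, 11.35 and 11.42 in H69, a rise of 0.35 ± 0.056 (limma, adjusted p = 0.00132) that was small but larger than the spread between arrays. AXIN2, the standard readout of beta-catenin signalling, had values of 7.52, 7.52 and 7.44 in H69M, against 7.40, 7.51 and 7.45 in H69. The lines overlapped, and the difference of 0.039 (95% interval -0.099 to 0.18) did not pass (limma, adjusted p = 0.637). AXIN1, the scaffold of the destruction complex, had 0.20 (limma, adjusted p = 0.0787) and passed in 3 of 16 alternatives. NKD1, a feedback inhibitor that binds Dishevelled, was measured at 6.83, 6.73 and 6.75 in H69M, against 7.09, 6.95 and 7.02 in H69, a log2 fold change of -0.25 ± 0.063 (limma, adjusted p = 0.0126) without overlap. This call was lost without H69 replicate 1 (limma, adjusted p = 0.054).

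RNF43 and ZNRF3 encode ubiquitin ligases that remove Frizzled receptors from the cell surface, and LGR5 a receptor for R-spondins, which hold these ligases back. ZNRF3 had values of 8.44, 8.36 and 8.34 in H69M, against 8.87, 8.91 and 8.87 in H69. It fell by 0.50 ± 0.057 (limma, adjusted p = 0.000229), and the lines were well apart. RNF43 stood at 5.33, 5.28 and 5.18 in H69M, against 5.39, 5.17 and 5.47 in H69, overlapped between the lines and did not pass (-0.080, limma, adjusted p = 0.506). LGR5 had values of 10.04, 10.40 and 9.46 in H69M, against 10.38, 10.29 and 10.22 in H69. The H69M arrays of LGR5 scattered over nearly 1 log2 unit and spanned the H69 values, and the difference of -0.33 did not pass (limma, adjusted p = 0.238). Without H69M replicate 2, the highest of them, it became -0.55 with a limma adjusted p of 0.0371. AXIN2, NKD1, NOTUM, ZNRF3, RNF43, LGR5 and LEF1 are known in other tissues as genes that beta-catenin switches on. Of these 7, 0 rose (21% of all genes did), 4 fell (23.2% of all genes) and 3 did not pass, a grouping made after the values were seen and with no test. The 4 include NKD1, whose call was lost without H69 replicate 1. The 7 do not stand for all genes tied to beta-catenin. DKK1, which rose by 5.39, is not among the 7. Its window held the TCF and LEF core, as did 9.69% of the windows of all genes tested. Whether any factor bound there was not measured. Of the 19 measured targets listed further below, 9 rose and 2 fell.

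**Figure D3:**
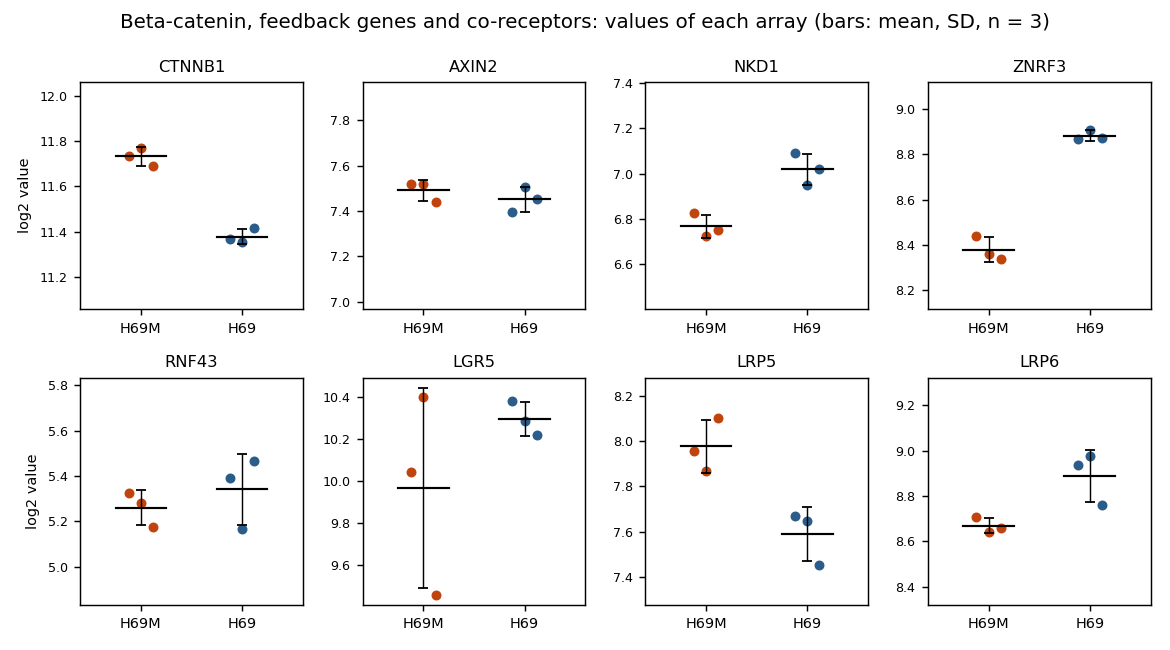
Log2 value of each array (points) with the mean and SD of each line (n = 3) for CTNNB1, 5 feedback or receptor turnover genes and the 2 co-receptor genes; each panel has its own y axis, which spans at least 1 log2 unit. CTNNB1 and LRP5 are higher in H69M (left) than in H69 (right), NKD1, ZNRF3 and LRP6 are lower, and AXIN2, RNF43 and LGR5 overlap.

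All 3 measured TCF and LEF genes passed, where 44.2% of all genes did, and they moved in opposite directions. TCF7L2, which encodes TCF4, the main partner of beta-catenin in the colon, had values of 7.79, 8.24 and 8.32 in H69M, against 5.40, 5.30 and 5.65 in H69. It rose by 2.67 ± 0.15, a 6.35-fold difference (limma, adjusted p = 4.73e-06), and H69M replicate 1 was the lowest of the H69M arrays. TCF7L1, which encodes TCF3 and acts largely as a repressor, stood at 7.61, 7.67 and 7.76 in H69M, against 6.28, 6.21 and 5.97 in H69, a rise of 1.53 ± 0.091 (limma, adjusted p = 6.67e-06). LEF1, a factor that is itself raised by beta-catenin in many tissues, was measured at 9.81, 9.67 and 9.58 in H69M, against 10.87, 10.86 and 10.85 in H69. It was 2.25-fold lower in H69M, with a log2 fold change of -1.17 ± 0.070 (limma, adjusted p = 7.13e-06). The H69 arrays of LEF1 were nearly identical, and the H69M arrays lay more than 1 log2 unit below them. The H69 arrays of TCF7L1 and TCF7L2 lay below the median of all gene means, and their H69M arrays above it. The H69 mean of TCF7L2 (5.45) also lay below the 25th percentile (5.58), so its 6.35-fold difference is not an exact ratio of RNA levels.

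The wider pathway was read from 8 lists of 98 other genes, of which 95 were measured. Of these, 35 rose (36.8%, against 21% of all genes), 20 fell (21.1%, against 23.2%) and 40 did not pass. Differences of at least 2-fold were seen in 18 rises (18.9%, against 5.56% of all genes) and 1 fall (1.05%, against 2.72%). Of the 55 calls, 11 were lost in at least 1 alternative. WLS, the carrier that brings WNT ligands to the cell surface, had the largest change of these genes. It stood at 9.10, 9.38 and 9.32 in H69M, against 5.64, 5.64 and 5.93 in H69, a rise of 3.53 ± 0.11 and an 11.6-fold difference (limma, adjusted p = 2.66e-07). The H69 mean of WLS (5.74) lay below the median of all gene means (7.16) and just above the 25th percentile (5.58). Its fold need not be an exact ratio of RNA levels. PORCN, the enzyme that attaches the lipid, is not analysed here. Among 6 R-spondin and receptor genes, RSPO3 rose by 0.89 ± 0.20 (limma, adjusted p = 0.00788), LGR6 was lower (-1.64 ± 0.12, limma adjusted p = 2.29e-05) and 4 did not pass. Rises thus made up 16.7% of this list (21% of all genes) and falls 16.7% (23.2% of all genes).

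Of 17 extracellular modulators, 9 were higher (52.9%, against 21% of all genes) and 4 lower (23.5%, against 23.2%). The higher calls of DRAXIN and DKKL1 and the lower call of TRABD2B were lost in 6 of 16, 2 of 14 and 11 of 15 alternatives. FRZB, the SFRP3 of the antagonist family, rose by 1.30 ± 0.084 (limma, adjusted p = 1.05e-05). RECK rose by 2.73 and ADGRA2 by 2.28; together these membrane proteins form a receptor complex for WNT7 ligands in brain vessels. IGFBP4, a binding protein of insulin-like growth factors that can also inhibit WNT signalling, rose by 2.49. The highest limma adjusted p of RECK, ADGRA2 and IGFBP4 was 4.31e-06, for ADGRA2. The H69 mean of RECK (5.12) lay below the 25th percentile of all gene means (5.58), so its rise is not an exact ratio. WNT7B, a ligand of that complex, was among the ligand genes that fell.

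The list of destruction complex genes also holds regulators of the complex, among them TNKS and RNF146. Its median absolute log2 fold change was 0.12, where it was 0.19 over all genes. Of the 12 measured genes of this list, 4 rose (33.3%, against 21% of all genes) and 0 fell (against 23.2%). None rose by more than 0.50: RNF146 (0.50), CSNK1D (0.34), CSNK1A1 (0.22) and TNKS (0.19). The CSNK1A1 and TNKS calls were each lost in 6 of 16 alternatives, with limma adjusted p values of up to 0.0936 for CSNK1A1 and 0.109 for TNKS. Of 12 genes of Dishevelled and its regulators, 3 rose (25%) and 3 fell (25%), near the shares of all genes (21% and 23.2%). CXXC5 rose by 1.22 ± 0.079, and its relative CXXC4 fell by 0.80 ± 0.11; both proteins can bind Dishevelled and inhibit signalling. The Dishevelled antagonist DACT1 fell by 0.81 and FRAT2, which sequesters the kinase GSK3, by 0.42. The highest limma adjusted p of these 4 genes was 0.00221, for FRAT2.

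Among nuclear co-factors 4 of 14 rose (28.6%, against 21% of all genes) and 5 fell (35.7%, against 23.2%). The largest change was in TLE4, a co-repressor of the Groucho family that TCF factors recruit, which had values of 9.99, 10.27 and 10.19 in H69M, against 7.18, 7.14 and 7.35 in H69. It rose by 2.93 ± 0.091 (limma, adjusted p = 3.1e-07), a 7.61-fold difference. PYGO1, which links beta-catenin complexes to chromatin through BCL9 proteins, rose by 2.09, BCL9L rose by 0.80, and TLE2 fell by 0.92 (limma, highest adjusted p = 0.000392, for TLE2).

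In the planar cell polarity list, which orients cells within a sheet, 4 of 14 rose (28.6%) and 5 fell (35.7%). Of all genes, 21% rose and 23.2% fell. The rises were in VANGL1 (1.25), PRICKLE1 (1.12), CELSR1 (1.12) and VANGL2 (1.07), each at least 2-fold, with a highest limma adjusted p of 0.00103, for PRICKLE1. Of 19 measured genes known as beta-catenin targets in other cells, 9 rose (47.4%, against 21% of all genes) and 2 fell (10.5%, against 23.2%). Of these calls, 3 rises and 1 fall were lost in at least 1 alternative, CCN4 in 7 of 15 and CCND1 in 2 of 16. MYC rose by 2.11, FOSL1 by 1.72, PPARD by 1.70 and CD44 by 1.63 (limma, highest adjusted p = 0.00021, for FOSL1). All 4 also answer to pathways other than WNT. The median log2 fold change was 0.18 over these target genes and 0.32 over the extracellular modulators, where it was -0.041 over all genes.

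**Figure D4:**
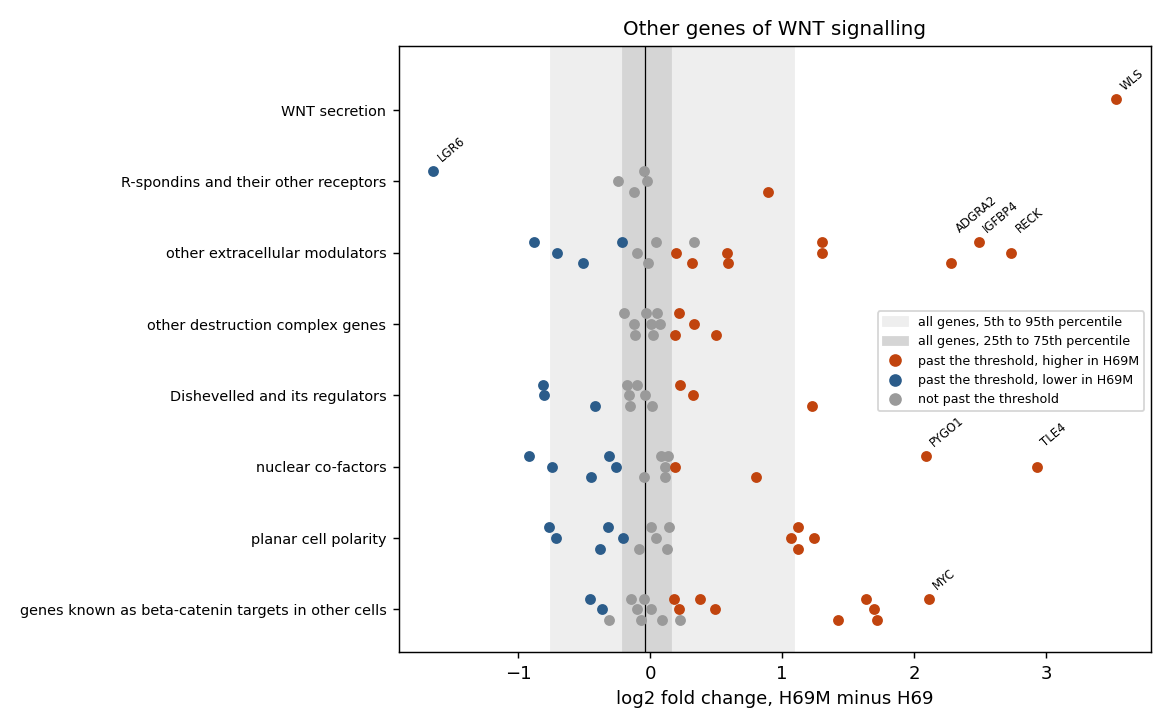
Log2 fold change (H69M minus H69, x axis) of the 95 measured genes of 8 further lists (rows), 1 point per gene, over the spread of all genes (dark band, 25th to 75th percentile, -0.20 to 0.16; light band, 5th to 95th percentile, -0.75 to 1.09; vertical line, median). WLS at 3.53, TLE4 at 2.93 and RECK at 2.73 stand furthest right, and genes of the destruction complex list lie close to 0.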

How the data were processed

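Per the labels' protocols, column-purified total RNA was amplified into biotin-labelled sense-strand targets. The values deposited by the authors are on a log2 scale. RMA and limma appear, with no version, in the submitters' processing notes; the genome build is not given in the sources used here. RMA normalizes arrays to each other and compresses differences of dim genes, and the number of arrays limits the precision (over the members, the standard error had a median of 0.078 in log2).

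Genes were named from the 19158 of 32321 probe sets with 1 symbol, and each of 18404 genes was read from its probe set of highest mean. H69M and H69 were compared in a limma model of the line alone (version 3.58.1, under R 4.3.3; lmFit, then eBayes; two-sided). Benjamini-Hochberg adjustment ran over all genes, with 0.05 as the threshold. Python 3.11.15 with pandas 2.3.3 and matplotlib 3.10.9 summarised the results. The members, lists and tests were chosen with earlier results of these data known. By the naming rule, array values are given for members with at least a 2-fold difference and for 12 fixed genes, of which 11 were measured, and up to 4 genes past the threshold with the largest change are named from each other list. The fit was tested on a simulated H69M against H69 comparison of 18404 genes. There, 75% of 100 genes shifted by 0.5 in log2 were recovered, and 89% of 100 shifted by 1, with 7 false calls. The shifted genes were a far smaller share than the 44.2% of genes that passed in the data. The adjusted threshold was therefore not met under the same conditions, and these rates need not hold for the data. The alternatives tried were a replicate block, centred arrays, a second quantile normalization, 2 filters on dim genes, eBayes with trend or robust, array weights, 2 other choices of probe set, and each array left out in turn. No array was left out of the main results. Promoter sequences are from RefSeq (GRCh38.p14).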

Additional observations from a re-analysis of the deposited data

How the results depend on the processing

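Over 16 alternatives, 26 of the 33 members that passed did so wherever they were tested, 7 lost the call at least once (WNT4, WNT5B, WNT10B, FZD9, FZD10, LRP6 and NKD1) and 0 changed sign. Of 55 other pathway genes that passed, 11 lost the call at least once and 0 changed sign. Leaving out 1 array gave 16 to 18 higher members, 11 to 16 lower ones, and 8 to 10 and 5 with at least a 2-fold difference. With the genes below the median level left out, 23 of 54 members were tested, and the counts fell to 8 higher, of which 2 by at least 2-fold. The counts by role were then 0 higher and 3 lower of 4 ligands, 3 Frizzled genes higher, 1 antagonist higher and 1 lower of 2, and 0 of 1 TCF and LEF gene higher. Under the same filter beta-catenin and its cytoplasmic regulators had 2 higher and 0 lower, R-spondins 0 higher, other extracellular modulators 5 and planar cell polarity genes 2. Counts that fell did so with fewer genes tested, and the filter, a mean over both lines, itself removes genes that are low in 1 line. With the 25th percentile as the limit, 2 of 5 antagonists were higher. Centred arrays gave 0 lower co-receptors and 2 higher cytoplasmic regulators, and array weights 2 lower genes in the R-spondin list, LGR6 and RSPO1; the cause was not tested.

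Leaving out 1 array moved the lower co-receptors between 0 and 2, lower receptor turnover genes between 1 and 2, higher cytoplasmic regulators between 1 and 2 and lower ones between 0 and 1, lower R-spondin genes between 1 and 2, and higher destruction complex genes between 2 and 3. The replicate numbers did not pair the arrays: deviations of same-numbered arrays from their line means correlated at 0.021, 0.007 and 0.010. With the replicate number as a block, 17 members were higher and 12 lower, with 0 lower co-receptors and 2 higher destruction complex genes. Among members that did not pass, 4 changed sign. WNT7A became 0.0122 with centred arrays and 0.0166 with a second quantile normalization, and ranged over -0.0591 to 0.0101 with 1 array left out. WNT8B became 0.00871 and 0.0280 in those 2 normalizations, and ranged over -0.0763 to 0.0107. With 1 array left out WNT8A ranged over -0.117 to 0.194 and FZD4 over -0.0133 to 0.0705. In the main fit these differences were near 0, at -0.018 for WNT7A, 0.032 for WNT8A, -0.021 for WNT8B and 0.036 for FZD4. Only WNT8B among them had a 6-array mean below the 25th percentile of all genes. Whether low signal played a part was not tested.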

Other observations

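The Groucho co-repressor genes did not move together. TLE4, given above, rose, whereas TLE1, at 9.45, 9.33 and 9.67 in H69M, against 10.19, 10.33 and 10.15 in H69, differed by -0.74 ± 0.096 (limma, adjusted p = 0.000441), and its arrays did not overlap between the lines. TLE3, which encodes another co-repressor of this family, fell by 0.45 ± 0.083 (limma, adjusted p = 0.00298). APCDD1, a membrane inhibitor of WNT signalling, had values of 8.50, 8.30 and 7.93 in H69M, against 9.19, 9.11 and 9.06 in H69. The difference was -0.88 ± 0.13 (limma, adjusted p = 0.00104). KREMEN1, a receptor through which DKK1 removes LRP6 from the cell surface, fell by 0.71 ± 0.083 (limma, adjusted p = 0.000271), where DKK1 rose by 5.39. These genes were chosen after their values were seen.

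WNT genes that lie side by side in the genome, with no protein-coding gene between them in the RefSeq gene table, had these differences. On chromosome 17 WNT3 rose by 1.06 and its neighbour WNT9B had 0.046, which did not pass. On chromosome 12 WNT10B had -0.26, which passed, and WNT1 -0.040, which did not. On chromosome 2 neither WNT6 (0.090) nor WNT10A (-0.13) passed. The difference within a pair was not tested.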
